A study of Oryctolagus cuniculus with 54 samples.

Results

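The step from the pseudoglandular to the canalicular phase of rabbit lung development was followed here in 14 of the 45 animals of the series. 6 canalicular animals, 3 at F25 and 3 at F27, were compared with 8 pseudoglandular animals, 4 at F20 and 4 at F23, where F is a fetus and the number its day of gestation. The rule that chose the animals used age and sequencing run and no measured value. All were New Zealand White fetuses taken by Caesarean section after the dam had been sedated and euthanised, each lung pair from another dam according to the study's methods. The labels name no genotype or treatment other than the day of delivery, and give the tissue as a homogenate of the right lung. The methods state that whole lungs were used at F20 and F23 because of their size, so the part of the lung taken and the phase cannot be told apart. The labels give the day of gestation and not the phase, and the assignment of days to phases is that of the study, which places F23 and F27 near phase borders.

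In the pseudoglandular phase the lung bud branches into the tree of conducting airways, which are lined by a tall, little differentiated epithelium and set in abundant mesenchyme. In the canalicular phase the distal airways widen, capillaries grow towards the epithelium, and the epithelium begins to separate into the flat type 1 cells of gas exchange and the surfactant-making type 2 cells. Each value below is from RNA of a lung homogenate, in which fewer cells of a type and less RNA per cell cannot be told apart.

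The library kit (QuantSeq FWD) counts a transcript by a tag close to its 3′ end, and transcript length therefore has little influence on the count. The 8 pseudoglandular libraries came from sequencing run 3 and the libraries of 5 canalicular animals from run 1, whereas the animal F25_13 was sequenced in both. The difference between runs was therefore taken from 5 animals sequenced in both: F25_13, 2 later fetuses (F28_2 and F28_7) and 2 pups born at term and kept with their mothers in room air (T35_6 and T35_11). This gave 23 of the 54 libraries of the series, from 18 animals. They held 5771693 to 7816993 counts each, and 15325 to 16097 genes had at least 1 count. No pseudoglandular animal was sequenced in run 1. In the names of pups, T marks a birth at term and the number counts on from the day of gestation, with birth at T31. Genes are given in the deposited table as Ensembl identifiers with no name beside them. 0 of the 29587 identifiers could be matched to a symbol, so the phase step is described here by groups of genes, by animal and by age, and no cell type marker could be checked.

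Of the 29587 genes listed, 14406 reached 0.5 CPM (read counts scaled to the depth of the library) in at least 3 of the 14 compared libraries and were tested. Calls needed both a more than 2-fold difference and an adjusted p no higher than 0.05 (edgeR's quasi-likelihood test with the run and the repeated animals in the model, Benjamini-Hochberg adjustment). With these limits 1701 genes differed between the phases, 11.8% of those tested. They comprised 916 genes that were higher in the canalicular phase (6.36%) and 785 that were lower (5.45%). The unadjusted p was under 0.05 for 5599 genes (38.9%), and 4024 had an adjusted p of at most 0.05 at any fold change.

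The balance of rises and falls depended on the scaling of the libraries. Rises made up 53.9% of the calls here, but 44% when TMM scaling took another animal's library as its reference (1743 calls, 767 higher and 976 lower), and 39.3% when libraries were scaled by their total counts alone (1752 calls, 689 higher and 1063 lower). The median log2 difference of all genes tested was -0.02 here, -0.11 with the other reference and -0.16 with total counts, and each difference given below is to be read relative to that centre. No call had the opposite direction under either scaling. The number of falls also depended on single animals: without F25_13 there were 821 rises and 510 falls, and without F23_23, the TMM reference, 851 rises and 1095 falls.

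The 916 risen genes were 1.56 higher on the log2 scale at the median (quartiles 1.20 and 2.19), with a median standard error of 0.36. Of these, 294 rose more than 4-fold, 92 more than 8-fold and 27 more than 16-fold. Their median level went from 6.24 CPM in the pseudoglandular to 21.2 CPM in the canalicular animals, after adjustment for the run. In 47 of them every pseudoglandular animal lay below 0.5 CPM. The 785 fallen genes differed by -1.46 at the median (quartiles -2.08 and -1.18, median standard error 0.38), with 214 changed more than 4-fold, 92 more than 8-fold and 46 more than 16-fold. Their median level went from 8.94 to 3.06 CPM, and in 112 of them every canalicular animal lay below 0.5 CPM. Genes that low in all animals of a phase passed the filter largely through the phase where they were high. The same share over all genes tested was not taken, so the 47 and the 112 are a description only. Before any run adjustment 0.5 CPM is only 2.89 to 3.91 reads in these libraries, so levels near it are imprecise. For the adjusted run 1 libraries this number differs from gene to gene.

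In 622 of the risen genes (67.9%) all 6 canalicular animals lay above all 8 pseudoglandular animals after the run adjustment, and in 523 of the fallen genes (66.6%) all lay below. Over all genes tested the animals did not overlap in this way for 9.63% with the canalicular animals higher and for 9.23% with them lower. Calls were most frequent among genes of low to middle abundance. They covered 9.52% of the genes below 2 CPM on average, 18.9% between 2 and 8 CPM, 14.5% between 8 and 32 CPM, 8.1% between 32 and 128 CPM and 7.03% above 128 CPM. Among genes above 128 CPM there were 81 rises and 34 falls, whereas below 8 CPM falls were slightly more numerous, with 181 falls and 167 rises below 2 CPM and 272 falls and 248 rises between 2 and 8 CPM.

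Risen genes took a growing share of all counted reads. The risen and the fallen genes were called on these same animals, so a change of share across the phase border is favoured by the selection and carries no test. Without any run adjustment, the 916 risen genes held 2.45% to 2.84% of the counts at F20, 3.78% to 4.37% at F23, 6.91% to 7.48% at F25 and 8.11% to 10.1% at F27. No 2 neighbouring ages overlapped. The 785 fallen genes held 3.03% to 3.85% at F20, 2.54% to 3.02% at F23, 1.19% to 2.74% at F25 and 1.75% to 2.08% at F27. Within F25 the lowest of these values belonged to F25_13 in run 3, and its run 1 library had 2.65%.

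The same order held in single animals. Against the pseudoglandular mean, the median log2 value of the risen genes was -0.36 to -0.20 in the 4 F20 animals, 0.17 to 0.36 in the 4 F23 animals, 1.17 to 1.35 in the 3 F25 animals and 1.51 to 1.77 in the 3 F27 animals. For the fallen genes the values were 0.06 to 0.32 at F20, -0.30 to -0.01 at F23, -1.20 to -1.02 at F25 and -1.46 to -1.25 at F27. These medians describe genes chosen on the same animals and carry no test. Among these genes each of the 4 F23 animals lay from F20 towards the later ages. The gap between the F23 and the F25 animals is favoured by the selection, and the values of F25_3 and F25_18 also rest on the run adjustment.

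**Figure D1:**
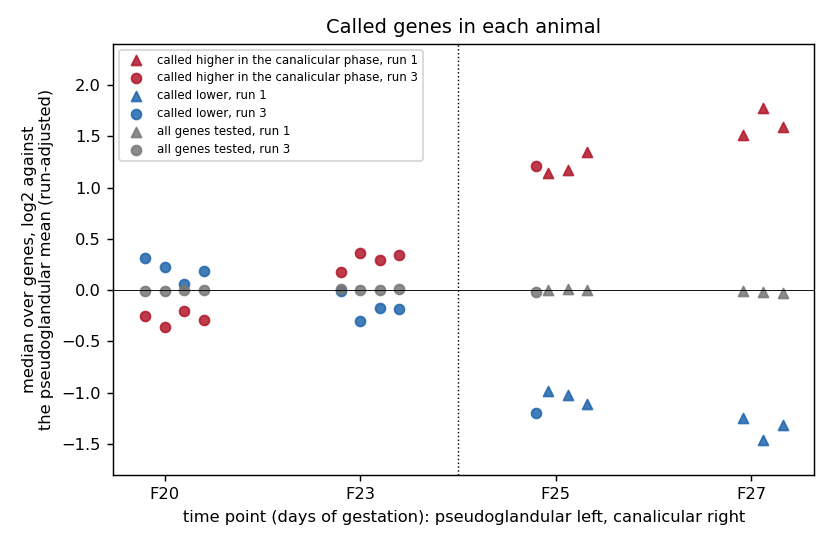
Median log2 value over the genes called higher, the genes called lower and all genes tested, in each library of F20, F23, F25 and F27, against the pseudoglandular mean. Circles are run 3 and triangles run 1, adjusted for the run; F25_13 appears once for each run, at 1.21 in run 3 and 1.14 in run 1 for the risen genes, and all genes tested stay near 0.

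Between successive ages, the median change of the called genes was largest between F23 and F25, the pair on either side of the phase border. The phase contrast by which the genes were called gives that interval its full weight and the other 2 intervals less, so the selection favours both this order and a steady course. The risen genes changed by a median of 0.64 on the log2 scale from F20 to F23, 1.03 from F23 to F25 and 0.42 from F25 to F27. The fallen genes changed by -0.39, -1.14 and -0.30. For all genes tested these medians were -0.02, -0.00 and 0.00. The largest of the 3 rises fell between F23 and F25 in 580 risen genes (63.3%), between F20 and F23 in 255 (27.8%) and between F25 and F27 in 81 (8.84%), where the same shares over all genes tested, which were not selected, were 37.3%, 31% and 31.7%. The largest fall lay between F23 and F25 in 665 fallen genes (84.7%), between F20 and F23 in 53 (6.75%) and between F25 and F27 in 67 (8.54%), against 38.4%, 27.8% and 33.8% over all genes tested. The values rose at every age in 741 of the risen genes (80.9%) and fell at every age in 543 of the fallen genes (69.2%), against 18% and 18.1% over all genes tested. These shares are a description with no test.

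When tested directly, F25 differed from F23 in 624 genes (4.33%), 346 of them higher at F25 (2.4%) and 278 lower (1.93%). The median differences were 1.39 and -1.46 on the log2 scale. With the other TMM reference the calls were 260 higher and 400 lower. F23 differed from F20 in 355 genes (2.46%), with 287 higher and 68 lower at F23. F27 differed from F25 in 96 genes (0.666%), with 72 higher and 24 lower at F27. These counts share animals and had unequal precision, the median standard error being 0.23 for F23 against F20, 0.29 for F25 against F23 and 0.25 for F27 against F25. Of the 3 intervals, F23 to F25 had the most calls although its error was the largest, and it is also the interval across which the run changed. Without F25_13 there were 319 calls between F25 and F23, of which 232 were higher and 87 lower, and 284 of the 319 were also among the 624.

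More genes differed between the runs than between the phases. In the animals sequenced in both, 3778 genes were called between run 1 and run 3 (26.2%), with 2261 higher in run 1 (15.7%) and 1517 lower (10.5%), and the 5th and 95th percentiles of the difference were -1.45 and 2.26 on the log2 scale. Among the 916 risen genes, 187 were called lower in run 1, 30 higher and 699 neither, so that 23.7% had a called run difference. Among the 785 fallen genes, 386 were called higher in run 1, 17 lower and 382 neither, which makes 51.3%. These shares stand beside the 26.2% of all genes tested. The phase and run differences of a gene share the error of the run term, and across all genes they had a correlation of -0.37, which is a description only.

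**Figure D2:**
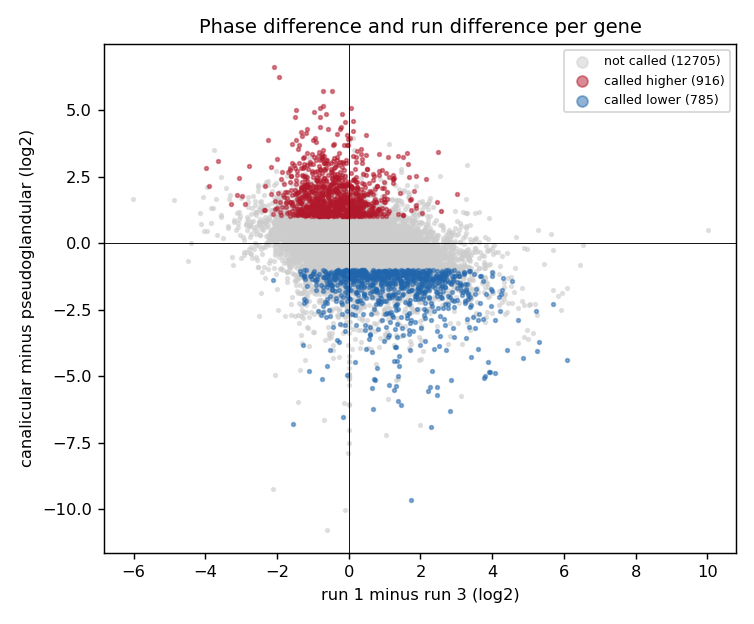
Fitted log2 difference between the phases (vertical axis, canalicular minus pseudoglandular) against the fitted log2 difference between the runs (horizontal axis, run 1 minus run 3) for each of 14406 genes. The 785 genes called lower (blue) reach far to the right, where run 1 was higher, and the 916 genes called higher (red) lie mostly around 0 and to the left.

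The adjustment decided the direction of many falls. In the 386 fallen genes that were higher in run 1, the median over genes of the 5 run 1 animals minus the pseudoglandular animals was 0.50 before the adjustment, the run difference was 2.11, and the adjusted phase difference was -1.44. In the same genes F25_13, compared with the pseudoglandular animals inside run 3, had a median of -1.37. The run 3 library of F25_13 took part in the calls and in the run difference, so its values here are no independent check. In the 187 risen genes that were lower in run 1, the value before the adjustment was 0.27, the run difference was -1.34, the adjusted phase difference was 1.60 and that of F25_13 inside run 3 was 1.28. In genes with no called run difference the unadjusted and adjusted medians lay close together, at 1.40 and 1.55 in 699 risen genes and at -1.29 and -1.52 in 382 fallen genes. With the same libraries and animal terms but no run term, 3849 genes were called, 837 of them as in the adjusted fit and 63 in the opposite direction.

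The calls were also counted among genes with a small adjustment. Of the 9639 tested genes whose fitted run difference was below 2-fold, 670 were called higher and 321 lower (10.3%), and 14.9% of the remaining genes were called. These genes were still adjusted, and the run difference that chose them shares its error with the phase difference. Their balance of rises and falls therefore depends on this choice and is a description only.

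Within run 3, where no adjustment is needed, F25_13 was the only canalicular animal. It lay above all 8 pseudoglandular animals in 796 of the 916 risen genes (86.9%) and below all 8 in 661 of the 785 fallen genes (84.2%), while over all genes tested it lay above all 8 in 24.6% and below all 8 in 22.9%. F25_13 took part in the calls, so these shares are a description. A test of this 1 animal against the 8, which takes the spread from the pseudoglandular animals, called 504 genes (3.5%), 252 in each direction. It uses libraries of the step and is no independent check of it.

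Libraries of later ages in run 3 showed how the called genes stood afterwards. These values were scaled over the run 3 libraries alone, and those of F25_13 differ slightly from the 1.21 and -1.20 given above. The latter used the scaling of both runs and log2 of CPM plus 0.5. With that scaling and a prior count of 2 the medians of F25_13 were 1.27 and -1.30. Relative to the pseudoglandular animals, which all of these comparisons share, the median log2 value of the risen genes was 1.30 in F25_13, 1.88 at F28, 1.85 at T31, the day of birth at term, 1.99 at T35, 1.68 at T37 and 1.81 at T42. For the fallen genes it was -1.28, -1.56, -1.28, -1.58, -0.92 and -1.09 in the same order. All genes tested had medians between -0.04 and 0.01. The T31, T37 and T42 animals had no part in the fit.

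A gene was more than 2-fold above the pseudoglandular mean at T42 in 78.5% of the risen genes and more than 2-fold below it in 51.6% of the fallen genes, against 14.7% and 10.8% of all genes tested. At F28 the shares had been 93.1% and 83.9%, against 12.6% and 13.1% of all genes. The risen genes hence stayed near their canalicular level or above in these libraries. The fallen genes lay closer to their pseudoglandular level at T37 and T42 than at F28 in all of the animals. However, the F28 and T35 libraries helped to set the run difference behind the calls, which favours genes that stand far from the pseudoglandular level in them. Birth and air breathing also lie between F28 and these later ages. The selection, birth with air breathing, and a change with age after F28 cannot be told apart.

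**Figure D3:**
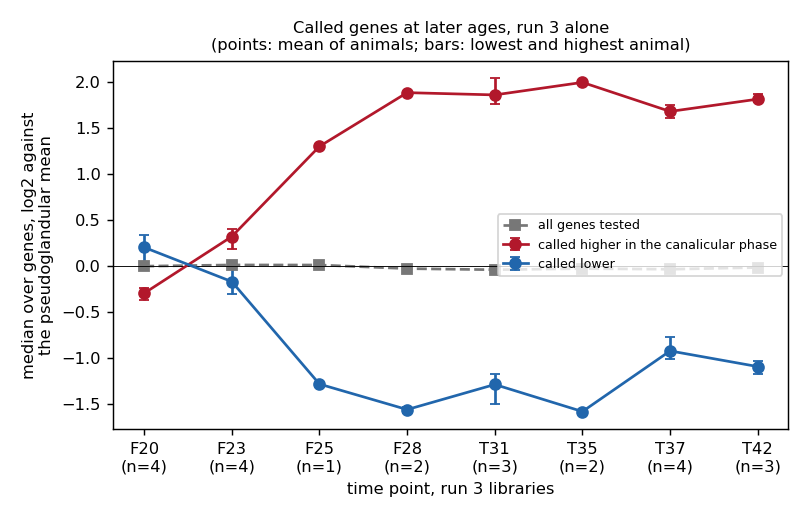
Median log2 value of the genes called higher (red), called lower (blue) and of all genes tested (grey) in run 3 libraries by age, against the pseudoglandular mean. Points are means over the animals and bars reach from the lowest to the highest animal; the fallen genes are lowest at T35, at -1.58, and F28, at -1.56, and stand at -0.92 at T37.

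The distance between 2 libraries, taken as the root mean square log2 difference per gene, put these changes on the scale of the spread between animals. Inside run 3 it averaged 0.762 between F20 animals, 0.695 between F23 animals and 0.811 between F20 and F23 animals (16 pairs, 0.720 to 0.919). F25_13 was 0.902 from the F23 animals on average (4 pairs, 0.845 to 0.951) and 1.09 from the F20 animals (4 pairs, 1.05 to 1.15). Inside run 1 the F25 animals were 0.720 apart, the F27 animals 0.689, and F25 and F27 animals 0.738 (9 pairs, 0.644 to 0.796). The F27 animals were 0.720 from the 2 F28 animals (6 pairs). The ranges of the F25 and F27 pairs within and between the ages overlapped. Inside run 3 each pair of F20 and F25_13 lay outside the range of pairs within F20 or within F23. The pairs of F23 and F25_13 began at 0.845, just inside the range within F20, which reached 0.846. They also overlapped with the pairs of F20 and F23, and F25 in run 3 is 1 animal.

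The 2 libraries of 1 animal lay 1.20 apart for F25_13, 1.11 for F28_2, 1.10 for F28_7, 0.935 for T35_6 and 0.932 for T35_11. The run thus moved F25_13 further than the distance between it and the F20 animals inside run 3. More than 2-fold differences between the 2 runs were seen in 36.5% of the genes in F25_13 and in 25.9% to 33.7% in the other 4. The run differences of these animals had correlations across genes of 0.693 to 0.800 between pairs of them. The run difference at F20 and F23 was not measured. In an added test, 223 genes (1.55%) had a run difference at T35 that differed from that at F25 and F28, and 22 of them (9.87%) were among the genes called in the step, beside 11.8% of all genes tested.

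**Figure D4:**
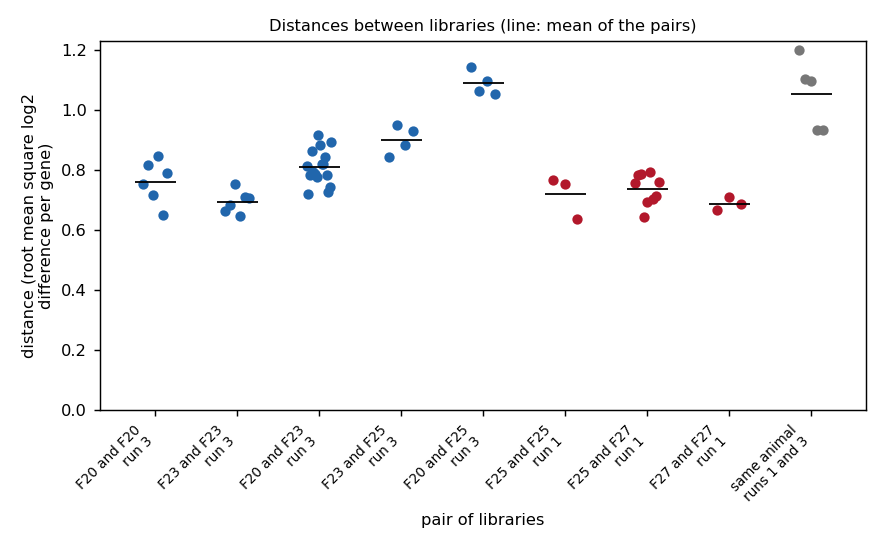
Root mean square log2 difference per gene between pairs of libraries, by age and run (blue run 3, red run 1), and between the 2 libraries of the 5 animals sequenced in both runs (grey). Lines are means of the pairs; the grey points lie between 0.932 and 1.20, in the range of the distances of F25_13 from the F20 and F23 animals or above it.

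Only 4 identifiers are given singly, because they could not be paired with a gene name: the 2 largest rises and the 2 largest falls among called genes whose animals did not overlap and whose higher phase averaged at least 5 CPM. 541 risen and 390 fallen genes met these conditions. Levels below are CPM with the run 1 libraries adjusted to run 3.

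ENSOCUG00000020733 was at 1.31, 4.26, 1.37 and 2.30 CPM in the F20 animals and at 77.0, 23.7, 38.9 and 41.4 CPM in the F23 animals. It reached 923 CPM in F25_3, 1320 in F25_13 and 628 in F25_18, and 1959, 2411 and 3558 CPM in the F27 animals. Every age lay above the one before with no overlap. The phase difference was 6.23 ± 0.97 (SE) on the log2 scale with an adjusted p of 0.00016 (edgeR). F23 was already 4.28 ± 0.37 above F20 (adjusted p = 4.4e-07), F25 was 4.34 ± 0.35 above F23 (adjusted p = 1.5e-06) and F27 was 1.52 ± 0.30 above F25 (adjusted p = 0.014). The run 1 minus run 3 difference was -1.94 ± 0.76 (adjusted p = 0.038, edgeR). In the fit that gave the errors of 0.97 and 0.76, F20 and F23 share 1 mean, so both errors include the difference between these ages. With a mean per age the phase difference was 7.24 ± 0.34. Before the adjustment the run 1 levels were 329 CPM in F25_13, 1012 in F28_2, 1267 in F28_7, 825 in T35_6 and 653 in T35_11. In run 3 these animals had 1320, 3644, 4695, 3222 and 2628 CPM in the same order.

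ENSOCUG00000005152 showed another course, with no sign of a rise before the phase border at this depth. In 6 of the 8 pseudoglandular libraries it had 0 counts, and the other 2, F20_35 and F23_23, had 1 count each. The F25 animals stood at 3.88, 6.73 and 1.95 CPM (F25_3, F25_13 and F25_18) and the F27 animals at 4.41, 5.13 and 10.02 CPM. The groups did not overlap. The ratio of the phases was 149 after the run adjustment. Its 95% exact Poisson interval was 41.3 to 1231 for the 2 pseudoglandular counts and covers counting error only. Before the adjustment the 5 canalicular animals of run 1 alone stood at 0.458 to 2.35 CPM (3 to 16 counts). The ratio and the mean of at least 5 CPM therefore rest on the run difference. The fitted log2 difference of this gene was 6.61 ± 0.64 (SE, adjusted p = 3.3e-06, edgeR). F25_13 had 46 counts in run 3 and 8 in run 1, and its run 1 minus run 3 difference was -2.09 ± 0.37 (adjusted p = 7.3e-05).

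ENSOCUG00000002402 stood at 20.2 to 29.6 CPM in the 4 F20 animals and at 4.60 to 13.7 CPM in the 4 F23 animals, which did not overlap (-1.47 ± 0.34 on the log2 scale, adjusted p = 0.014, edgeR). In the canalicular animals it had 1 count in F25_3 and 0 counts in the other 5 libraries, F25_13 in run 3 among them, while the run 1 library of F25_13 held 3 counts. The ratio of the phases was 1917 with a 95% exact Poisson interval of 344 to 75698 for that 1 count after the run adjustment, and 647 (116 to 25563) without it. With the 3 counts of the run 1 library of F25_13 added and no run adjustment it was 188 (73.3 to 689). These intervals hold counting error only and none of the error of the run difference. The fitted difference was -9.64 ± 1.85 (SE; adjusted p = 0.001), and its run difference of 1.75 ± 1.48 was estimated from a few reads only. The fitted difference was -11.04 without T35_6, -10.63 without F25_3 and -9.03 without F25_13.

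ENSOCUG00000012367 was at 17.3, 16.5, 16.1 and 5.46 CPM in the F20 animals and at 4.805, 8.78, 4.88 and 3.27 CPM in the F23 animals. These ages overlapped, and the difference of -1.35 ± 0.45 had an adjusted p of 0.081 (edgeR). The 6 canalicular libraries held 7 counts in all, 3 of the libraries having none, so that every canalicular animal lay at or below 0.286 CPM. The ratio of the phases was 82.3 with a 95% exact Poisson interval of 39.97 to 205 after the run adjustment and 55.4 (26.9 to 138) without it. The fitted difference was -6.24 ± 1.37 (SE; adjusted p = 0.0025), and -7.58 without T35_11. Most of the fall of both identifiers lay between F23 and F25, at -7.59 ± 1.27 for ENSOCUG00000002402 (adjusted p = 0.0014) and -5.49 ± 1.19 for ENSOCUG00000012367 (adjusted p = 0.0059).

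**Figure D5:**
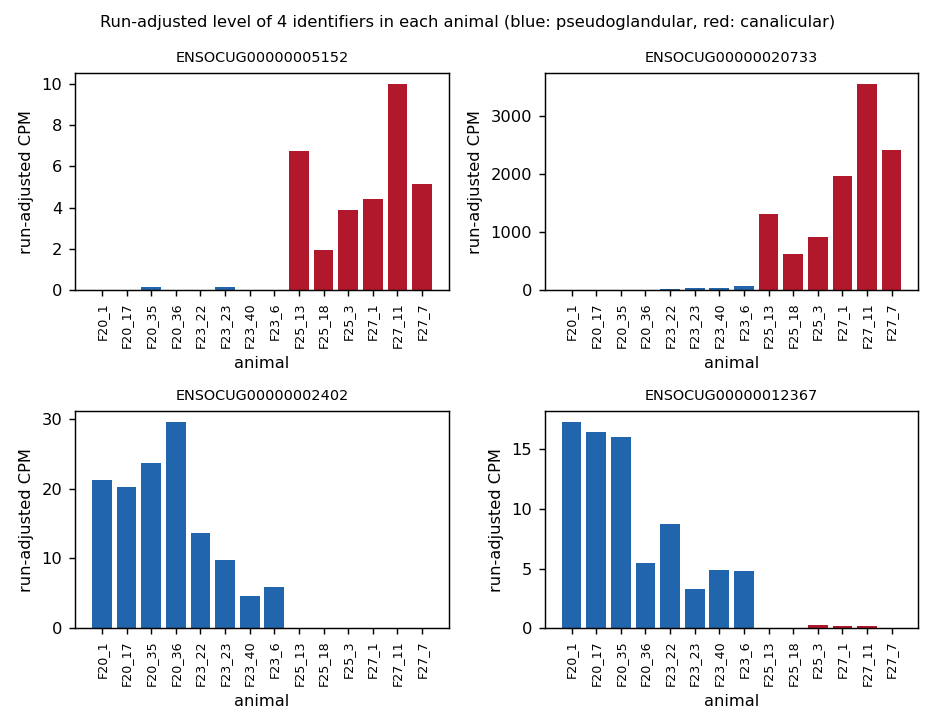
Run-adjusted CPM of the 4 identifiers in each of the 14 animals, as bars from 0 on a linear axis; blue bars are pseudoglandular and red bars canalicular animals. ENSOCUG00000005152 and ENSOCUG00000020733 have their tallest bar in F27_11, at 10.02 and 3558 CPM, and ENSOCUG00000002402 and ENSOCUG00000012367 have theirs at F20, at 29.6 and 17.3 CPM.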

How the data were processed

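Lung RNA libraries were made with QuantSeq FWD and sequenced on a NextSeq500 in 3 runs. The authors checked reads with FastQC, trimmed adapters with BBduk, aligned to OryCun2.0 with STAR and counted reads per gene of the rabbit Ensembl annotation by HTSeq-count, with a custom script for unannotated 3′ UTRs. Tool versions are not given in the sources used here, nor is it stated whether the deposited counts include the added UTR reads. The deposited table holds raw whole-number counts per gene. Every column was mapped to its animal, age and run from the labels, 0 columns were left without a sample, and entries that name no gene held 0% of the counts. 0 pairs of libraries were identical.

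The filter kept genes at 0.5 CPM or more in 3 or more of the 14 compared libraries, and TMM scaled the libraries. edgeR 4.0.16 in R 4.3.3 fitted 23 libraries with a mean per phase, a term for each of the 5 repeated animals (the animal as a block) and the run, leaving 15 residual degrees of freedom. The canalicular mean weighted the 5 run 1 animals and F25_13 equally per animal, over 6 animals. Ages were compared in the same way with a mean per age. Standard errors (SE) were derived as the absolute log2 difference divided by the square root of its F statistic. They are approximate, and unreliable for genes with counts near 0 in a phase or age. Run-adjusted CPM are run 1 values divided by the fitted run difference of the gene, with F25_13 represented by its run 3 library. Medians by animal used log2 of run-adjusted CPM plus 0.5. Distances and the values given before the run adjustment used log2 CPM with a prior count of 2. Later ages were compared in run 3 alone. The test of the run difference by age used the 10 libraries of the repeated animals. Procedures were tested on simulated data. Intervals and counts cover reads without molecular identifiers, which are not independent molecules.

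The animals, comparisons and lists were chosen with earlier results of these data known. The rule for identifiers was the largest called rises and falls with non-overlapping animals and at least 5 CPM in the higher phase, 2 each way because no names could be paired. The 28 gene lists planned, the cell type markers among them, and a promoter search were not used here for the same reason. Alternatives were other scalings, filters, tools (DESeq2 1.42.0, limma-voom of limma 3.58.1), designs, thresholds and each animal left out in turn. Another TMM reference, the omission of the run term from the full set of libraries, the fits without the T35 or F28 animals and the run difference by age were added after seeing the data. Plots used matplotlib 3.10.9 (Python 3.11.15).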

Additional observations from a re-analysis of the deposited data

Results flagged for a closer look

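The difference between runs 1 and 3 was itself tested between ages, as T35_6 and T35_11 against F25_13, F28_2 and F28_7, with 10 libraries and each animal as its own block. It differed in 223 genes (edgeR's quasi-likelihood test, fold above 2, adjusted p of at most 0.05), being larger at T35 in 118 and smaller in 105. At any fold change the adjusted p was at most 0.05 in 1345 genes, and the unadjusted p was under 0.05 in 3047. This test was chosen after seeing the data.

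Values of an animal far from the others of its group were sought in 44 sets of values and found in 6. The rate of about 1 in 20 given by chance holds for separate sets of continuous values. These sets overlap and some hold mostly 0 counts, so the 6 of 44 cannot be set against that rate. F20_1 had 6433138 counts, while the other 3 F20 libraries had 7257675 to 7323627, and its 10 most abundant genes held 7.10% of its counts, while they held 12.3% to 12.6% in the others. F20_36 had 5.46 CPM of ENSOCUG00000012367, where the other F20 animals had 16.1 to 17.3 CPM. The remaining 3 were single animals with a value above 0 where the others of their group had 0 counts, at 0.137 CPM in F20_35 and 0.149 CPM in F23_23 for ENSOCUG00000005152 and at 0.0451 CPM in F25_3 for ENSOCUG00000002402, each of them 1 count.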

How the results depend on the processing

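The phases shared replicate numbers only by name, so no pairing of the compared animals by number was made, and the block is the animal sequenced in both runs. With no replicate block, every library being taken as an independent animal, the step had 1637 calls and F25 against F23 695. The number of calls in the step was outside 1.5 times of the 1701 under 7 settings. It was 3849 without the run term, 3432 with neither the run term nor the repeated libraries, and 4024 with the adjusted p alone. It was 939 when each library needed 10 counts or more, 789 with the run in the model and no bridging library, 913 with glmTreat at a fold of 1.5, and 504 in run 3 alone. For F25 against F23 the calls changed from 624 to 1510 without the run term, to 1241 with neither that term nor the repeated libraries, and to 1840 with the adjusted p alone, and for the run difference from 3778 to 7602 with the adjusted p alone. Leaving out 1 animal gave 1331 to 1946 calls for the step, 319 to 729 for F25 against F23 and 3395 to 3839 for the run difference. The lowest value was without F25_13 in each, and the falls of the step were then 510 instead of 785. The highest value of the step and that of F25 against F23 were without F23_23 (43.7% and 37.9% of the calls higher), whose library is the one that TMM takes as its reference. With the library that replaces it, F27_1, as reference and all animals kept, the step had 1743 calls, F25 against F23 660 and the run difference 3711. The step had 1703 calls without the T35 animals (41.5% higher) and 1210 without the F28 animals (55.7% higher). Without the T35 animals TMM also took F27_1 as its reference, and with that reference and all animals kept 44% of the calls were higher. The 4 identifiers kept their direction and call under each of the 36 alternatives that could test them, with adjusted p between 1.4e-12 and 0.043. Their log2 differences ran from 4.76 to 7.08 (ENSOCUG00000005152), 4.50 to 7.37 (ENSOCUG00000020733), -11.06 to -7.49 (ENSOCUG00000002402) and -9.06 to -5.62 (ENSOCUG00000012367). The filter that needed 10 counts in each library left none of them. The gene lists were not run under any setting. At 5771693 to 7816993 counts per library, falls to near 0 are known only within wide limits. The causes of these changes were not tested, apart from the smaller number of genes or animals in some of the settings and the change of TMM reference.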

Other observations

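The most abundant gene of these libraries on average, ENSOCUG00000029084, was singled out after its values were seen. It held 0.931% to 1.38% of the counts in 7 of the 14 compared animals and 3.70% to 7.22% in the other 7, with 4 pseudoglandular and 3 canalicular animals on each side. The 5 animals sequenced in both runs were on the same side of this gap in runs 1 and 3. The gap was not empty in the series: 9 of the other 40 libraries lay inside it, at 1.43% to 3.01%, among them a run 2 library of F28_2 at 2.64% and T31_4, T31_11 and T31_18 at 1.94%, 2.45% and 3.01%. In F25_13 it held 5.42% of the counts in run 1 and 3.70% in run 3, in F28_2 1.21% and 0.977%, in F28_7 1.22% and 0.895%, in T35_6 4.73% and 3.95%, and in T35_11 4.35% and 4.42%. The phase difference was -0.54 ± 0.78 (SE) on the log2 scale with an adjusted p of 0.65 (edgeR). F20_1, whose 10 most abundant genes held the smallest share of counts at F20, had 0.958% of its counts in this gene, and the other F20 animals had 6.02% to 7.22%.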
